A study of Rattus norvegicus with 24 samples.

Results

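Single-neuron RNA profiles of rat dorsal root ganglion (DRG) were examined for 8 receptor genes, the Mas-related receptors Mrgprd, Mrgprb4 and Mrgprx4 and the P2X receptors P2rx2, P2rx3, P2rx4, P2rx5 and P2rx6, chosen by symbol from the 32881 genes that all count files share. Their identifiers in the files are ENSRNOG00000013448, ENSRNOG00000033021 and ENSRNOG00000014242 for the Mas-related genes and ENSRNOG00000037456, ENSRNOG00000008552, ENSRNOG00000001300, ENSRNOG00000019208 and ENSRNOG00000001873 for the P2X genes, in the order given. The neurons came from L4 and L5 ganglia of male Sprague-Dawley (SD) rats. They were profiled with unique molecular identifiers (UMIs) that count each tagged RNA molecule once. Sham rats, whose sciatic nerve was exposed and left uninjured, gave 4 DRG samples, and rats at 1, 3 and 7 days after spared nerve crush (SNC), in which the tibial and common peroneal nerves are crushed and the sural nerve is spared, gave 4, 3 and 5 samples. These 16 samples are called dye-labeled here, since their neurons were picked by hand after dye injection into the branches of the sciatic nerve. A further 7 libraries, called added here, are labeled sham at 0 days (3 libraries), 1 day (2), 3 days (1) and 7 days (1), and were kept apart because they are not in the sample table of the study. The study names neurons for subtype annotation beside the fluorescently labeled ones, and how those of the added libraries were picked is not given. RNA of at least 5 rats was used per time point, but age and the number of rats behind each sample are not given, so the spread between samples may be partly technical. Cell names do not carry the dye, so crushed and uncrushed neurons of a rat could not be separated and an SNC value below covers both. The make-up of the samples also differed, since the sample table of the study gives most samples about equal numbers of either dye but 7 day replicates 4 and 5 mostly neurons of 1 dye, opposite in these replicates.

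Mas-related receptors are G protein-coupled receptors of small sensory neurons that signal through phospholipase C, and in rodents several of them mark subsets of nonpeptidergic neurons that innervate the skin and respond to itch-inducing or touch stimuli. P2X receptors are cation channels opened by extracellular ATP, built as trimers, and P2X2 and P2X3 can join in the same channel, which differs from the P2X3 homotrimer in how quickly it desensitizes. Sprr1a, a small proline-rich protein gene that sensory neurons turn on after axon injury, was used to divide the neurons. Its level per sample did not separate SNC from sham here.

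After filtering, 1433 of 1464 cells remained, 930 dye-labeled and 503 added. Median depth was 239286 UMIs per dye-labeled neuron and 340145 per added neuron, and a sample held 4002503 to 40732975 UMIs. All 96 barcodes occur in more than 1 library, and no 2 cells had identical counts. Neuron markers summed to 6092 to 8810 counts per 1000000 UMIs (CPM) in the dye-labeled samples, and glial markers to 182 to 1337 CPM in sham and 256 to 1064 CPM at 1 day. Sham replicate 1 stood apart, with 24 neurons, 4002503 UMIs, no nonpeptidergic-like (NP-like) neuron and 70.8% of its neurons in clusters without a name. The reverse transcription fell in an earlier year for 3 of the 4 sham samples and 3 of the 7 day samples, and in a later year for every 1 and 3 day sample, so year and time after SNC overlap in large part. Levels below are CPM, the UMIs of a gene over the neurons of a sample or cluster per 1000000 UMIs, and because tags were counted at one end of the RNA they were not divided by gene length. A neuron was said to hold a gene at 50 CPM or more with at least 2 UMIs.

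Mrgprd, which encodes the receptor that defines the classic nonpeptidergic C-fiber nociceptor of rodents, was close to undetected in both sets. The 930 dye-labeled neurons carried 7 Mrgprd UMIs in 3 cells, all of them NP-like, and no UMI in the 870 other neurons, which allows a share of up to 0.345%. In the added libraries 49 UMIs were in 19 of 225 NP-like neurons and 9 UMIs were in 8 of 278 other neurons. The share with a UMI was thus 8.44% in NP-like neurons and 2.88% in the others, which should lack the gene. No neuron held Mrgprd, which allows a share of up to 0.323% of dye-labeled and 0.596% of added neurons, and the highest value in any cell was 19.8 CPM. The NP-like neurons were named from a marker list without Mrgprd, of which 9 of 11 genes were high in the dye-labeled cluster.

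Mrgprb4, known from mice as a marker of C-fibers that respond to gentle stroking of hairy skin, was the most abundant of the 3 Mas-related members. It was held by 29 dye-labeled neurons (3.12%) and 81 added neurons (16.1%), with a median of 160 and 192 CPM among holders. Of the 29 dye-labeled holders, 21 were NP-like and 8 neurofilament-like (NF-like), and of the 81 added holders 71 were NP-like, 9 NF-like and 1 peptidergic-like (PEP-like). Hence 35% of dye-labeled and 31.6% of added NP-like neurons held the gene. At a clustering resolution of 0.3 the name NP-like covered 134 added neurons, and 20 of the 81 added holders were among them. A lone UMI was a weak sign of Mrgprb4, since 49.5% of added PEP-like neurons had at least 1 at a median depth of 373025 UMIs, against 77.8% of NP-like neurons at 290649. When each cell was thinned to 20000 UMIs these shares were 3.88% and 43.6%. In dye-labeled neurons the shares with a UMI were 5.32% of PEP-like and 73.3% of NP-like neurons, at median depths of 202819 and 297757 UMIs.

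Mrgprx4, named in the files beside a separate Mrgprx1 although the RefSeq annotation of GRCr8 lists it as another name of Mrgprx1, reached the holding level in NP-like neurons alone at the main clustering. All 12 dye-labeled and all 14 added holders were then NP-like, and they made up 20% and 6.22% of the NP-like neurons. At a clustering resolution of 0.3, 4 of the 14 added holders were NP-like. The highest value of Mrgprx4 in a cell was 103 CPM, against 648 CPM for Mrgprb4. Several Mas-related genes are close copies of one another, and how the counting divided reads between copies is not given, so a count for a single member of the family is uncertain to that extent.

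Among the P2X members, P2rx3, the subunit of the fast ATP current of nociceptors, was the most widespread. It was held by 741 dye-labeled neurons (79.7%) and 451 added neurons (89.7%), and its highest value in a cell was 1943 CPM. Nearly all NP-like neurons held it (98.3% dye-labeled, 99.1% added), as did the somatostatin-like (SST-like) neurons (98.4% and 100%). It was held by 76.4% and 84.8% of PEP-like and by 64.2% and 78.8% of NF-like neurons, but by 10.3% of the 29 TRPM8-like neurons, a cold-sensing type found in the dye-labeled set. In clusters without a name 209 of 235 dye-labeled (88.9%) and 33 of 46 added neurons (71.7%) held it.

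P2rx2, the subunit that pairs with P2X3, followed another order. It was held by 438 dye-labeled neurons (47.1%) and 51 added neurons (10.1%). Of the dye-labeled SST-like neurons 92.2% held it, and of TRPM8-like neurons 75.9%, against 42.5% of PEP-like, 26.1% of NF-like and 21.7% of NP-like neurons. In the added set the shares were 78.6% of SST-like neurons and 13.1%, 1.90% and 0.444% of NF-like, PEP-like and NP-like neurons. In clusters without a name 110 of 235 dye-labeled (46.8%) and 13 of 46 added neurons (28.3%) held it. The SST-like and TRPM8-like types thus led the named types for P2rx2. NP-like neurons, nearly all of which held P2rx3, came last of the named types in both sets at the main clustering. At a clustering resolution of 0.3, P2rx2 was held by 99 of 253 dye-labeled NP-like neurons (39.1%) and 0 of 134 added ones. Their share in the dye-labeled set thus depended on the clustering.

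P2rx4, a subunit found in many tissues and in microglia, was held by 165 (17.7%) and 200 (39.8%) neurons. The share was 31.7% and 45.8% of NP-like, 31.8% and 60.7% of SST-like, 22.9% and 49.5% of PEP-like and 7.95% and 14.1% of NF-like neurons. In clusters without a name it was 8.51% and 30.4%. NF-like neurons, the large myelinated types, had the lowest of these shares in both sets, but they made up most holders of P2rx6.

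P2rx6, whose product forms functional channels poorly on its own, was held by 27 (2.90%) and 73 (14.5%) neurons, of which 22 (81.5%) and 69 (94.5%) were NF-like. In the added set 69.7% of NF-like neurons held it. P2rx5 was held by 5 dye-labeled neurons (0.538%), of which 3 were NF-like, 1 NP-like and 1 PEP-like, and by 40 added neurons (7.95%), of which 24 were NF-like, 15 PEP-like and 1 in a cluster without a name. In RefSeq the genes P2rx2, P2rx3, P2rx4 and P2rx6 overlap Lrcol1, Ssrp1, Camkk2 and Lrrc74b, and the strand setting of the counting is not given, so reads of these partners may be in the counts.

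The NP-like neurons were not uniform in these receptors. Mas-related and P2X genes had been left out of the variable genes, so they did not shape the clusters. In the dye-labeled set they formed 1 cluster of 60 neurons, led by genes that include Mrgprb4, Chrna3 and Rbp2. There Mrgprb4 averaged 102.4 ± 56.8 CPM, Mrgprx4 29.9 ± 15.3, Mrgprx3 97.7 ± 68.5, P2rx2 28.8 ± 23.3, P2rx3 452 ± 45.8 and P2rx4 53.7 ± 16.8 (SD, n = 8 samples with at least 3 such cells). In the added set they formed 3 clusters. The first, 91 neurons led by Rbp2, Otof and Mrgprb4 with 4 of 11 NP markers high, carried 228 ± 82.6 CPM of Mrgprb4 and 35.8 ± 20.7 of Mrgprx3 (n = 6). The second, 76 neurons led by Lmx1a, Iapp and Lpar3 with 8 of 11 NP markers high, carried 55.9 ± 55.0 CPM of Mrgprb4 and 345 ± 68.9 of Mrgprx3 (n = 7). The order of Mrgprb4 and Mrgprx3 was thus opposite in these clusters. The third, 58 neurons led by Cav1 and Mc4r, carried 13.9 ± 14.0 CPM of Mrgprb4 and 200 ± 42.6 of Mrgprx3 (n = 7). P2rx3 was 531 ± 56.4 CPM in the Mrgprb4-rich cluster and 829 ± 64.1 and 811 ± 219 in the other clusters, and P2rx4 was at 60.9, 66.4 and 50.9 CPM. Outside NP-like neurons P2rx2 reached 189 ± 44.8 and 136 ± 42.3 CPM in the SST-like clusters of the dye-labeled set and 118 ± 31.5 CPM in TRPM8-like neurons, and P2rx6 reached 90.8 ± 8.32 CPM in the added NF-like cluster led by Shox2.

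**Figure D1:**
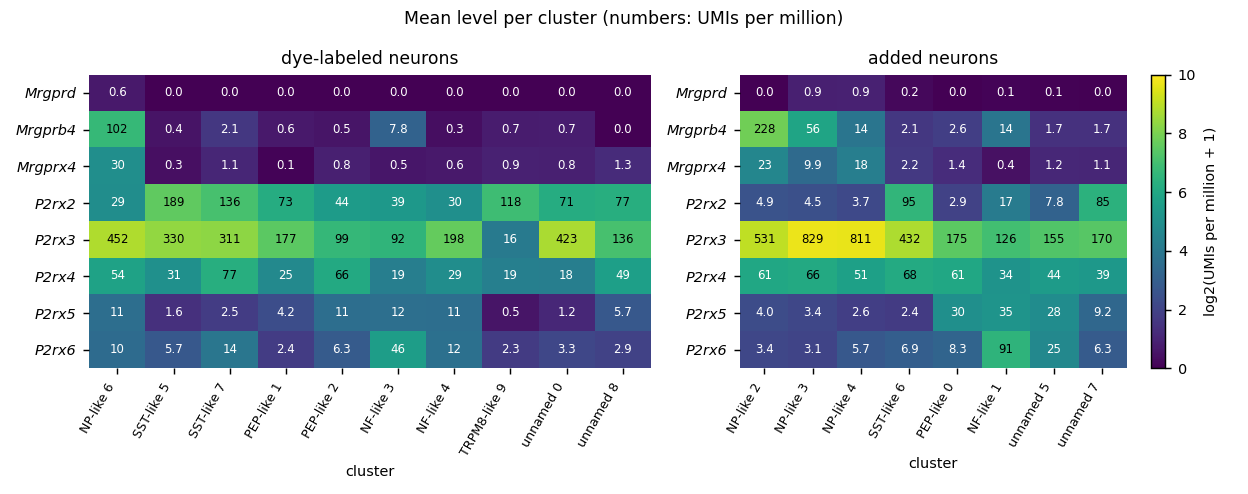
Mean level over samples (CPM printed in each cell, color on a log2 scale) of the 8 members in each cluster of neurons, with the dye-labeled and the added set clustered separately and named by marker lists. P2rx3 was high in all NP-like clusters, and P2rx2 peaked in SST-like and TRPM8-like clusters. P2rx6 peaked in the NF-like clusters led by Shox2, and Mrgprb4 in the NP-like clusters whose leading genes include it.

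Most NP-like neurons held 1 or none of Mrgprb4, Mrgprx4 and Mrgprx3, the Mas-related genes that any sizeable number of them held. Of the 60 dye-labeled NP-like neurons, 20 held Mrgprx3 alone, 14 Mrgprb4 alone, 2 Mrgprx4 alone, and 13 none of these 3 genes. Of the 225 added NP-like neurons, 119 (52.9%) held Mrgprx3 alone, 40 Mrgprb4 alone, 4 Mrgprx4 alone, and 28 none. Mrgprx3 was held by 3 of 21 dye-labeled NP-like neurons with Mrgprb4 (14.3%) and by 24 of 39 without it (61.5%), and in the added set by 26 of 71 (36.6%) and 122 of 154 (79.2%). Mrgprx3 was therefore the less frequent in neurons that held Mrgprb4 in both sets, as a count over cells without a test. Mrgprb4 and Mrgprx4 overlapped in 6 dye-labeled neurons, 20.7% of the Mrgprb4 holders and 50% of the Mrgprx4 holders. In the added set they overlapped in 7 neurons, 8.64% and 50%.

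P2rx3 was held by 79.7% of all dye-labeled and 89.7% of all added neurons, and the overlaps with it are given beside these shares. All 29 dye-labeled Mrgprb4 holders and 77 of 81 added ones (95.1%) held P2rx3, and so did all 12 and all 14 Mrgprx4 holders. Across the 7 added libraries the share of Mrgprb4 holders with P2rx3 ran from 42.9% to 100%, with a median of 100%. Mrgprb4 holders with P2rx2 were few, at 6 and 5 neurons. In the dye-labeled set 368 neurons held both P2rx2 and P2rx3, 84.0% of P2rx2 holders and 49.7% of P2rx3 holders. Across the 16 dye-labeled samples the share of P2rx2 holders with P2rx3 ran from 71.4% to 94.1%, with a median of 85.8%. In the added set 39 neurons held both, 76.5% of P2rx2 holders and 8.65% of P2rx3 holders, and the first share ran from 42.9% to 100% over 5 libraries (median 71.4%). P2rx2 holders thus held P2rx3 at a share near that of all neurons in the dye-labeled set and below it in the added set, as counts without a test.

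The other P2X pairs were counted in the same way. P2rx4 was seen with P2rx3 in 146 dye-labeled (88.5% of P2rx4 holders) and 184 added neurons (92%), against the 79.7% and 89.7% of all neurons. P2rx6 holders, mostly NF-like, held P2rx3 in 16 (59.3%) and 55 cells (75.3%), and P2rx5 with P2rx6 was seen in 1 dye-labeled and 18 added neurons. Counted per neuron, 94 dye-labeled cells (10.1%) held none of the P2X members, 382 (41.1%) held 1, 368 (39.6%) held 2 and 86 (9.25%) held 3. In the added set these numbers were 16 (3.18%), 221 (43.9%), 210 (41.7%) and 50 (9.94%), and 6 cells (1.19%) held 4.

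**Figure D2:**
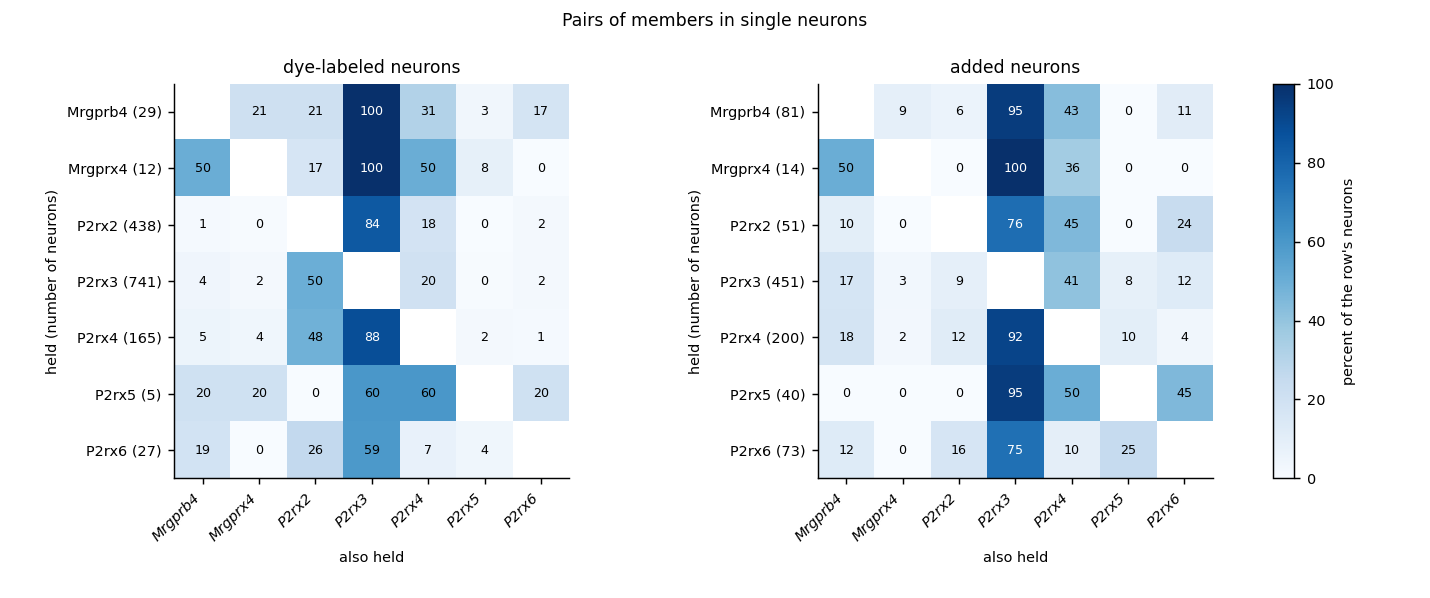
Share of the holders of each gene (rows, with their number) that also held another gene (columns), as percent of the row's neurons, in the dye-labeled and the added set. Nearly all Mrgprb4 and Mrgprx4 holders also held P2rx3, beside 79.7% and 89.7% of all neurons, and 84.0% and 76.5% of P2rx2 holders did.

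The levels of the members in all neurons of a sample were then compared between SNC and sham. P2rx3 was at 344, 218, 221 and 232 CPM in sham replicates 1 to 4, at 182, 223, 239 and 272 at 1 day, at 214, 253 and 219 at 3 days, and at 224, 165, 219, 208 and 287 at 7 days. The groups overlapped, and sham replicate 1 had the highest value. P2rx2 was at 71.5, 41.4, 81.0 and 76.6 CPM in sham, 56.8, 66, 53.2 and 47.9 at 1 day, 49.9, 63.2 and 67.8 at 3 days, and 86, 75.3, 74.2, 64.5 and 130.5 at 7 days. These groups overlapped too, with the highest value in 7 day replicate 5, where 33.3% of neurons were SST-like. P2rx4 was at 32.5, 26.9, 49.8 and 59.7 CPM in sham, 27.0, 50.6, 26.7 and 26.2 at 1 day, 33.0, 42.2 and 35.7 at 3 days, and 27.2, 12.7, 23.7, 25.9 and 35.7 at 7 days. At 7 days 4 of the 5 samples lay at 27.2 CPM or less, near or below the lowest sham sample, but the ranges overlapped.

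The Mas-related members were low over all neurons of a sample. Mrgprb4 was at 0, 29.7, 16.5 and 10.2 CPM in sham, 12.5, 1.76, 4.14 and 1.43 at 1 day, 18.5, 9.50 and 7.55 at 3 days, and 4.24, 2.39, 0.645, 0.211 and 23.3 at 7 days. The 0 was in sham replicate 1, which has no NP-like neuron and whose depth allows up to 0.75 CPM. Mrgprx4 was at 3.5, 5.26, 3.16 and 3.53 CPM in sham, 6.21, 1.84, 0.115 and 1.97 at 1 day, 5.21, 4.07 and 2.02 at 3 days, and 0.725, 0.875, 0.484, 0.106 and 4.41 at 7 days. In 4 of 5 samples at 7 days both genes were below all sham samples that have NP-like neurons, and replicate 5, one of the samples mostly of a single dye, was the exception. NP-like neurons made up 0 to 12.5% of a sample in sham and 0 to 8.33% at 7 days. Their share did not follow these levels in every sample. It was 12.5% in 1 day replicate 3, with Mrgprx4 at 0.115 CPM, and 0 in sham replicate 1, with Mrgprx4 at 3.5 CPM. Fewer cells of a type and less RNA per cell cannot be told apart in such sums. P2rx5 and P2rx6 were highest in 7 day replicate 4, mostly of the opposite dye, at 19.5 and 69.6 CPM, where 25% of neurons held P2rx6. Replicate 4 also had the largest share of NF-like neurons of the dye-labeled samples, 41.7%. The parts of the dye make-up and of the neuron types in these values were not tested. In the other samples P2rx5 ranged from 1.25 to 17.6 CPM and P2rx6 from 1.5 to 21.7 CPM.

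**Figure D3:**
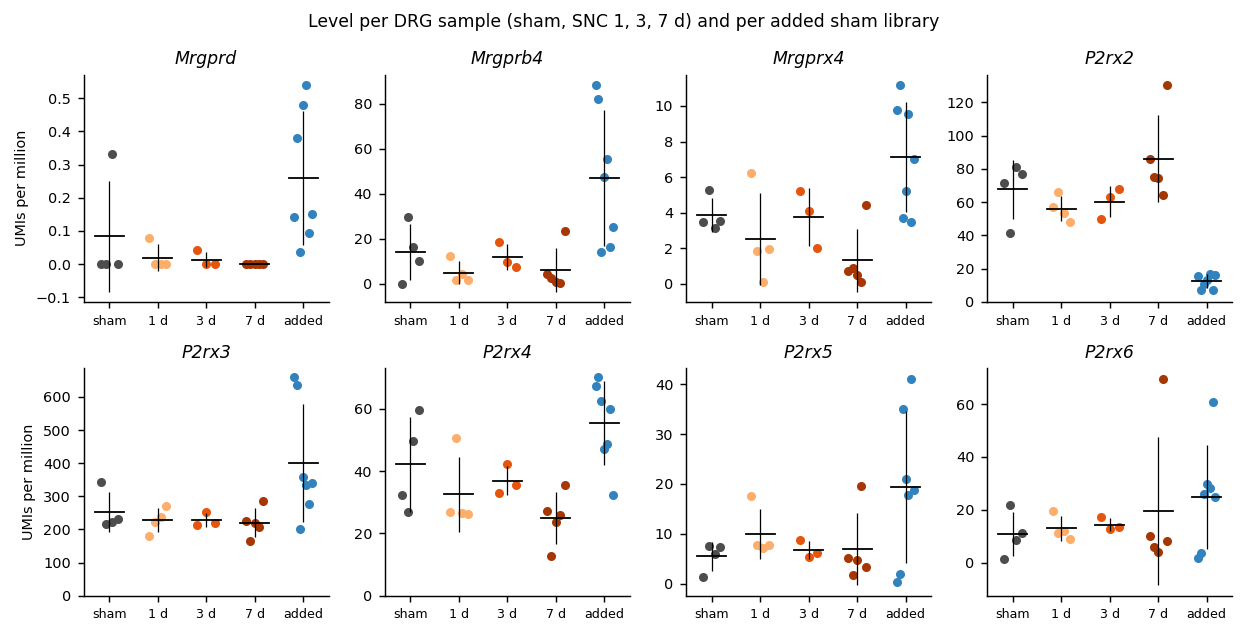
Level (CPM) of each member in each DRG sample by group, each point 1 sample over all its neurons, with the group mean (horizontal line) and SD (vertical line). The groups at 1, 3 and 7 days overlap sham for every member, and the added libraries lie below sham for P2rx2.

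No gene passed an adjusted p of 0.05 in edgeR's quasi-likelihood test at 1, 3 or 7 days (0% of 14239 genes tested), while 1243, 594 and 476 genes were below 0.05 before adjustment. DESeq2 called 9, 1 and 0 genes. Of the 8 members 7 were tested, Mrgprd being too low, and none was called, with 0, 0 and 1 below an unadjusted p of 0.05. The 1 was P2rx4 at 7 days, with a log2 fold change of -0.81 ± 0.30 (SE; unadjusted p = 0.0137, edgeR; adjusted p = 1.00). Fitted with a term for the reverse transcription year, it was -0.82 at 1 day (unadjusted p = 0.0299), -0.62 at 3 days and -0.89 at 7 days (unadjusted p = 0.00460), and no adjusted p was below 0.547. The estimates at 7 days were -1.63 ± 0.80 for Mrgprx4, -1.25 ± 1.02 for Mrgprb4, 0.29 ± 0.23 for P2rx2 and -0.27 ± 0.18 for P2rx3. None of these passed the test. The estimates for P2rx5 and P2rx6 at 7 days, 0.23 ± 0.57 and 0.78 ± 0.72, rested on replicate 4 and were -0.64 and -0.68 without it. The median of the members tested was -0.33, -0.19 and -0.27 at 1, 3 and 7 days, against -0.01, -0.00 and -0.01 over all genes.

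The share of neurons that hold a member was tested per sample by exact two-sided permutation tests, 24 in all, and none passed after Benjamini-Hochberg adjustment. The lowest p was that of P2rx2 at 7 days, where 60.4% ± 13.2 of neurons held the gene (SD, n = 5) against 40.9% ± 7.56 in sham (n = 4; exact permutation p = 0.0476, adjusted p = 1). P2rx4 was held by 9.17% ± 7.60 at 7 days and 22.0% ± 15.8 in sham (exact permutation p = 0.135). These designs could reach an exact permutation p of 0.0286 at 1 and 3 days and 0.00794 at 7 days, which for a lone test among the 24 adjusts to 0.686 and 0.190, so no member could have passed alone.

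Among related genes, none was called at any time either. This covered 6 of 14 Mas-related genes, 13 of 22 genes for other purine receptors and ATP handling, genes for signaling downstream of the receptors and 7 of 8 injury genes that passed the filter. At 7 days the estimates of the best expressed of each list were 0.05 ± 0.60 for Mrgprx3, 0.22 ± 0.15 for the ATP release channel gene Panx1, -0.27 ± 0.31 for Acpp, which encodes the acid phosphatase of nonpeptidergic neurons, -0.07 ± 0.25 for Gna14, -0.20 ± 0.41 for Trpv1, -0.18 ± 0.16 for Gap43 and -0.34 ± 0.34 for Gal. None of these passed the test. Sham neurons themselves held injury genes. The mean share that held Gal was 95.8% in sham, 98.7%, 100% and 99.2% at 1, 3 and 7 days, and 3.77% in the added libraries. For Sprr1a it was 50.8%, then 56.0%, 53.7% and 62.1%, and 0% in the added libraries. Jun and Gap43 were held by nearly all neurons of every group. Dye-labeled sham was thus not a baseline without injury genes.

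Within NP-like neurons the question was whether the level per neuron type differed. Enough cells were present in 3 sham, 3 samples at 1 day and 2 at 3 days, while NP-like cells at 7 days numbered 6 in all and were not compared. Mrgprb4 was at 196, 180 and 101 CPM in sham replicates 2 to 4, from 6, 4 and 9 cells. It was at 90.7, 28.6 and 76.5 CPM in 1 day replicates 1 to 3, from 9, 5 and 3 cells, and at 70.9 and 76.2 CPM in 3 day replicates 1 and 2, from 10 and 5 cells. Every SNC sample lay below every sham sample. The log2 fold change was -1.25 ± 0.38 at 1 day (unadjusted p = 0.00597, edgeR) and -1.15 ± 0.42 at 3 days (unadjusted p = 0.0166), and both had an adjusted p of 1.00. No gene was called (0% of 10243 tested), 302 and 174 were below 0.05 before adjustment, and with DESeq2 the counts were 4 and 3. Without the filter on low counts Mrgprb4 was called at 1 day (edgeR adjusted p = 0.00278) and had an adjusted p of 0.0551 at 3 days.

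Among the P2X genes of the NP-like neurons, P2rx4 was at 53.9, 71.5 and 58.3 CPM in sham, 42.9, 83.8 and 36.1 at 1 day and 44.0 and 39.6 at 3 days. Both 3 day samples lay below every sham sample, and the log2 fold change was -0.10 ± 0.32 at 1 day and -0.59 ± 0.36 at 3 days, both with an edgeR adjusted p of 1.00. P2rx3 was at 418, 517 and 443 CPM in sham, 482, 403 and 495 at 1 day and 469 and 391 at 3 days, and P2rx2 at 9.29, 14.1 and 75.6 CPM in sham, 17.2, 35.9 and 14.9 at 1 day and 14.5 and 49.3 at 3 days. Both sets of values overlapped. P2rx6, low in these neurons, was at 8.67, 8.47 and 17.7 CPM in sham and 3.97 and 2.44 at 3 days (log2 fold change -1.88, unadjusted p = 0.0381, edgeR, adjusted p = 1.00). Mrgprx4, at 33.4, 20.7 and 33.4 CPM in sham, 54.7, 24.6 and 2.12 at 1 day and 30.3 and 40 at 3 days, overlapped between groups. No gene of the other lists was called in NP-like neurons. Among the best expressed, Mrgprx3 had estimates of -0.49 ± 0.64 and -0.18 ± 0.69 at 1 and 3 days, Acpp 0.30 ± 0.26 and 0.13 ± 0.28, Panx1 0.25 ± 0.34 and 0.07 ± 0.37, Gna14 0.12 ± 0.15 and 0.18 ± 0.17, Trpv1 -0.24 ± 0.28 and -0.47 ± 0.31, Gap43 0.04 ± 0.15 and -0.08 ± 0.17, and Gal 0.88 ± 0.29 and 1.22 ± 0.31, all with an edgeR adjusted p of 1.00.

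Because the dye of a cell is not in the files, neurons of the same sample were also compared by their Sprr1a level, at 100 CPM or more against less. Over all neurons Sprr1a itself was not called against sham, with log2 fold changes of 0.04 ± 0.41, -0.13 ± 0.45 and -0.11 ± 0.39 (SE) at 1, 3 and 7 days. Sham replicate 1 had its highest level, 282 CPM, so Sprr1a-high neurons are not taken as crushed neurons. Of 930 dye-labeled neurons 413 (44.4%) were Sprr1a-high: 78 of 215 in sham (36.3%), 103 of 238 at 1 day (43.3%), 43.0% of 237 at 3 days and 130 of 240 at 7 days (54.2%). Sham replicate 1 gave 19 of its 24 neurons to the Sprr1a-high group, and 227 neurons (24.4%) lay between 50 and 200 CPM, near the limit. The Sprr1a-high share was 1 of 60 NP-like neurons (1.67%), 65 of 176 NF-like (36.9%), 141 of 301 PEP-like (46.8%), 38 of 129 SST-like (29.5%), 15 of 29 TRPM8-like (51.7%) and 153 of 235 unnamed neurons (65.1%). The Sprr1a-high and Sprr1a-low neurons thus differed in their types, and a difference in the number of cells of a type and in the level within it cannot be told apart in these sums. The low NP-like share is that of the main clustering. At a clustering resolution of 0.3 the name NP-like covered 253 dye-labeled neurons, these 60 among them, whose Sprr1a-high share was not counted. In the largest unnamed cluster of the main clustering 133 of 193 neurons were Sprr1a-high (68.9%).

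In edgeR with the DRG sample as a block, 32.5% of 11899 genes tested differed, 16.6% higher and 15.9% lower in Sprr1a-high neurons. Of the 8 members 6 could be tested, and 4 were lower and 0 higher, with a median log2 fold change of -1.11 against -0.00 over all genes. Mrgprb4 ran from 0 to 3.36 CPM (median 0.0906) in Sprr1a-high and from 0 to 48.2 CPM (median 11.3) in Sprr1a-low neurons of the 16 samples. It was lower in 15 samples and absent from both groups in 1, and its log2 fold change was -5.12 ± 0.37 (edgeR adjusted p = 1.16e-08), from 46 against 2336 UMIs. No Mrgprb4 or Mrgprx4 holder held Sprr1a, which allows a share of up to 10.3% of the 29 and 25% of the 12 holders. Sprr1a was held by 54.0% of all dye-labeled neurons. At the main clustering it was held by 2 of 60 NP-like neurons (3.33%), the type of most of these holders.

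P2rx4 ran from 8.62 to 43.4 CPM (median 21.6) in Sprr1a-high and from 15.6 to 78.7 CPM (median 38.6) in Sprr1a-low neurons. It was lower in 16 of 16 samples, with a log2 fold change of -0.98 ± 0.12 (edgeR adjusted p = 1.73e-06), and 33 Sprr1a-high (7.99%) against 132 Sprr1a-low neurons (25.5%) held it. This member fell in every sample, although the ranges across samples overlapped. P2rx5 was lower in 14 of 16 samples (medians 3.55 and 8.48 CPM; -1.25 ± 0.20, edgeR adjusted p = 6.04e-05), and P2rx6 in 14 of 16 (medians 5.69 and 15.3 CPM; -1.24 ± 0.27, edgeR adjusted p = 0.00147).

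The nociceptor pair did not follow. P2rx3 had medians of 244 CPM in Sprr1a-high and 216 CPM in Sprr1a-low neurons and was higher in 11 of 16 samples (0.11 ± 0.08, edgeR adjusted p = 0.323). P2rx2 had medians of 75.1 and 61.2 CPM and was higher in 12 of 16 samples (0.37 ± 0.18, edgeR adjusted p = 0.113). P2rx2 passed the threshold when 1 day replicate 4 or 7 day replicate 2 was left out (edgeR adjusted p = 0.0425 and 0.0418). With the limit at 300 CPM of Sprr1a both were called higher, P2rx2 at 0.68 (edgeR adjusted p = 0.00143) and P2rx3 at 0.47 (0.000314), and P2rx4 stayed lower at -0.49 (0.0356), with 39.3% of 11478 genes called.

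**Figure D4:**
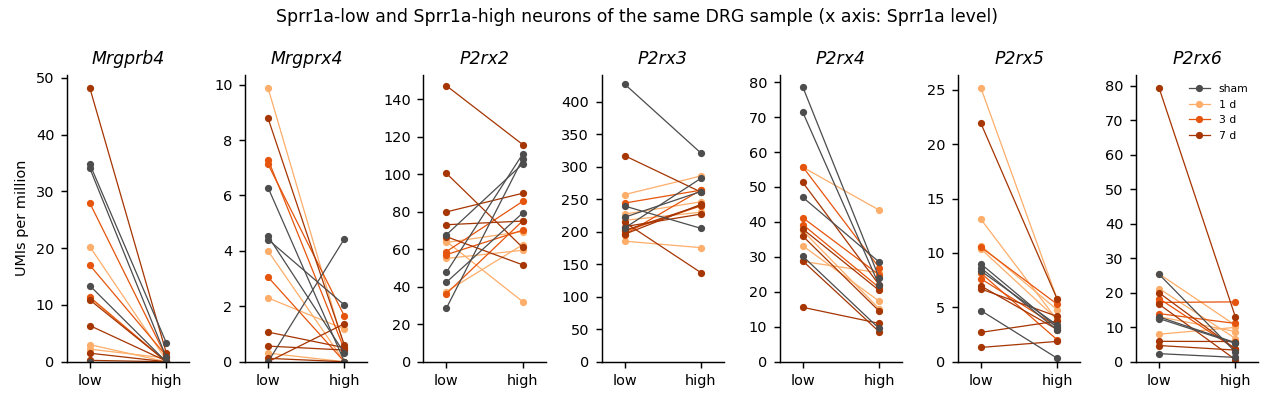
Level (CPM) of the members in Sprr1a-high and Sprr1a-low neurons of the same DRG sample, each line 1 of 16 samples colored by group. P2rx4 was lower in the Sprr1a-high neurons of all 16 samples and Mrgprb4 in 15. P2rx2 was higher in 12 and P2rx3 in 11 of the 16 samples, and neither was called at the limit of 100 CPM.

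The comparison was repeated with sample and cluster together as the block, so that a neuron was compared with others of its own cluster and sample, and 12.2% of 8512 genes tested were called. The fit had 47 such blocks from 16 DRG samples, so blocks of 1 sample counted as separate and its p-values may be too small. There P2rx4 remained lower in Sprr1a-high neurons (-0.60 ± 0.15, edgeR adjusted p = 0.00264), P2rx2 and P2rx3 were not called (0.27 and 0.17, adjusted p = 0.339 and 0.389), and the other members were too low to test. By cluster, P2rx4 was at 11 CPM in Sprr1a-high and 22.7 CPM in Sprr1a-low neurons of the Shox2-led NF-like cluster and at 18.1 and 45.8 CPM in the other NF-like cluster. It was at 24.4 and 27.2 CPM in the larger PEP-like cluster and at 21.1 and 21.9 CPM in the largest unnamed cluster. In the smaller PEP-like cluster it was at 120.4 CPM in Sprr1a-high and 66.3 CPM in Sprr1a-low neurons, from 5 and 108 cells. The direction was thus not the same in every cluster. In the Shox2-led cluster Mrgprb4 was at 0.299 against 16.9 CPM and P2rx6 at 17.8 against 65.4 CPM. In the other NF-like cluster P2rx2 was at 44.4 against 16.4 CPM. Over the 930 neurons, which share libraries and depth, Pearson's r with the Sprr1a level (log2(CPM + 1)) was -0.25 for P2rx4, -0.23 for Mrgprb4, -0.19 for P2rx6, 0.13 for P2rx2 and 0.09 for P2rx3. For P2rx4 it was -0.38 in the 176 NF-like, -0.29 in the 301 PEP-like and -0.29 in the 129 SST-like neurons, 0.14 in the 60 NP-like and -0.01 in the 235 unnamed neurons, and for P2rx2 it was 0.35 in NF-like neurons.

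Mrgprb4, P2rx4 and P2rx6 are the 3 members called lower in Sprr1a-high neurons over all types that have a window in the reference. Their RefSeq windows of 250 bases before the start are shown 5′ to 3′ (GRCr8). Holders of these genes were largely of different types, and of the 3 only P2rx4 could be tested within clusters. Whether they share regulation was not tested.
Mrgprb4 promoter, chr1:106989919-106990168, minus strand: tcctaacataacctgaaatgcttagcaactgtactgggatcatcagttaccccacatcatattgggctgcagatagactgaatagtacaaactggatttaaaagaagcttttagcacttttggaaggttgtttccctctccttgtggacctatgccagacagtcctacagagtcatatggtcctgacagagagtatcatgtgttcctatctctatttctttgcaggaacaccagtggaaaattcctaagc
P2rx4 promoter, chr12:39523090-39523339, minus strand: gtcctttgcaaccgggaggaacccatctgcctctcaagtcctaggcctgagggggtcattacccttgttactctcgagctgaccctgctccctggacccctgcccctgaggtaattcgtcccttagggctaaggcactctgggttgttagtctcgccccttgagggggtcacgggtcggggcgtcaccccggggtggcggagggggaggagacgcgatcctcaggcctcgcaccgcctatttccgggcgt
P2rx6 promoter, chr11:96954204-96954453, minus strand: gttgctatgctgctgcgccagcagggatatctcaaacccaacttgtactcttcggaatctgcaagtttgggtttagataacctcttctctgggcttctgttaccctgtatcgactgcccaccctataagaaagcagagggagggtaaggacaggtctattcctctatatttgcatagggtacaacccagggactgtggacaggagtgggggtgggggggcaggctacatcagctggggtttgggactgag
The AP-1 motif TGACTCA, which Jun and Fos family proteins bind, was searched together with its reverse complement TGAGTCA. The same was done for the Runx motif TGTGGT and, on the opposite strand, ACCACA. Neither occurs in these windows, so no base is in capitals, and of 33469 windows of that length 4.05% hold the first and 14.5% the second. These letters are not in these windows, and nothing further was drawn from that.

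Genes of the same pathways moved in both directions with Sprr1a, and the counts below stand beside 16.6% higher and 15.9% lower of all 11899 genes tested. Of the Mas-related list, Mrgprx3 was lower (-2.06, edgeR adjusted p = 0.000104) beside Mrgprb4, 2 of 4 tested. Of the purine list 7 of 13 tested were lower, led by the adenosine receptor gene Adora2b (-2.06) and the ADP receptor gene P2ry1 (-1.48), followed by P2ry2 (-1.16), Acpp (-0.77), Adora1 (-0.60), Entpd3 (-0.55) and Panx2 (-0.48). In the same list 3 were higher, the UDP receptor gene P2ry6 (2.57), the UDP-glucose receptor gene P2ry14 (1.01) and Panx1 (0.42). Of the downstream list the cation channel genes Trpv1 (-1.79) and Trpa1 (-1.16) were lower, as were Gna14 (-0.43) and Plcb3 (-0.36). The injury list, which includes the dividing gene Sprr1a itself, was the reverse, with 6 of 6 other genes tested higher: Gal (1.34), Sox11 (1.13), Atf3 (1.06), Ecel1 (0.96), Jun (0.59) and Gap43 (0.52). The median of the purine list was -0.48 and of the injury list 1.01, against -0.00 over all genes.

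The added libraries were compared with the dye-labeled sham samples, a comparison in which dye labeling, day and library batch cannot be told apart from one another. P2rx2 was at 41.4 to 81.0 CPM in the 4 dye-labeled sham samples and at 15.6, 7.02 and 10.5 CPM at 0 days, 13.1 and 17.0 at 1 day, 7.16 at 3 days and 16.0 at 7 days in the added libraries. The ranges were apart, and the log2 fold change was -2.58 ± 0.28 (edgeR adjusted p = 6.56e-05). In this comparison 40.6% of 15791 genes were called, 24.2% higher and 16.5% lower in the added libraries, and P2rx2 was the 1 member called of the 7 tested. P2rx3 ranged from 203 to 661 CPM in the added libraries and from 218 to 344 CPM in sham (0.54, edgeR adjusted p = 0.192), and Mrgprb4 from 13.9 to 88.4 CPM against 0 to 29.7 CPM (1.64 ± 0.78, edgeR adjusted p = 0.110). Sprr1a was at 0 CPM in 6 added libraries and 0.223 CPM in 1, against 65.3 to 282 CPM in sham. NP-like neurons made up 20.8% to 84.8% of the added libraries and 0 to 12.5% of the sham samples.

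Matched clusters were then compared, since the types picked differed. In NP-like neurons P2rx2 was at 9.29, 14.1 and 75.6 CPM in sham and 1.71 to 7.44 CPM in the 7 added libraries (-2.88, edgeR adjusted p = 0.000750), and P2rx3 at 418, 517 and 443 CPM against 662 to 742 CPM (0.59, edgeR adjusted p = 0.000838). These subunits thus differed in opposite directions in this type. In this comparison 38.3% of 12900 genes were called, among them Mrgprb4 (-0.75, edgeR adjusted p = 0.0488), Mrgprx4 (-0.83, adjusted p = 0.0337) and P2rx6 (-1.46, adjusted p = 0.0271), all lower in the added libraries. When the NP-like clusters with Mrgprb4 and Rbp2 among their leading genes were compared (38.4% of 11561 genes called), P2rx2 was again lower (-2.83, edgeR adjusted p = 0.00271), whereas P2rx3 was not called (0.18, adjusted p = 0.298), and neither was Mrgprb4 (0.51, adjusted p = 0.219) or Mrgprx4 (-0.36, adjusted p = 0.392). In PEP-like neurons led by Kcng1, P2rx2 was at 24.7, 32.4 and 46.6 CPM against 0 to 8.47 CPM (-3.73, edgeR adjusted p = 0.00126, with 25.2% of 12004 genes called). In the Sst-led SST-like neurons, a type with a high share of P2rx2 holders, it was at 144 and 153 CPM against 58.9 to 129 CPM (-0.68, edgeR adjusted p = 0.0877, with 18% of 8794 genes called). In the Shox2-led NF-like neurons P2rx2 overlapped at 2.28 to 65.3 against 5.16 to 30.4 CPM (-0.83, edgeR adjusted p = 0.471), and P2rx5 and P2rx6 were higher in the added set (1.51 and 1.19, edgeR adjusted p = 0.0189 and 0.0345, with 27.6% of 12608 genes called). P2rx6 was there at 16.0, 21.8 and 68.7 CPM against 78.2 to 101 CPM. Whether the P2rx2 difference itself varied between clusters was not tested.

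**Figure D5:**
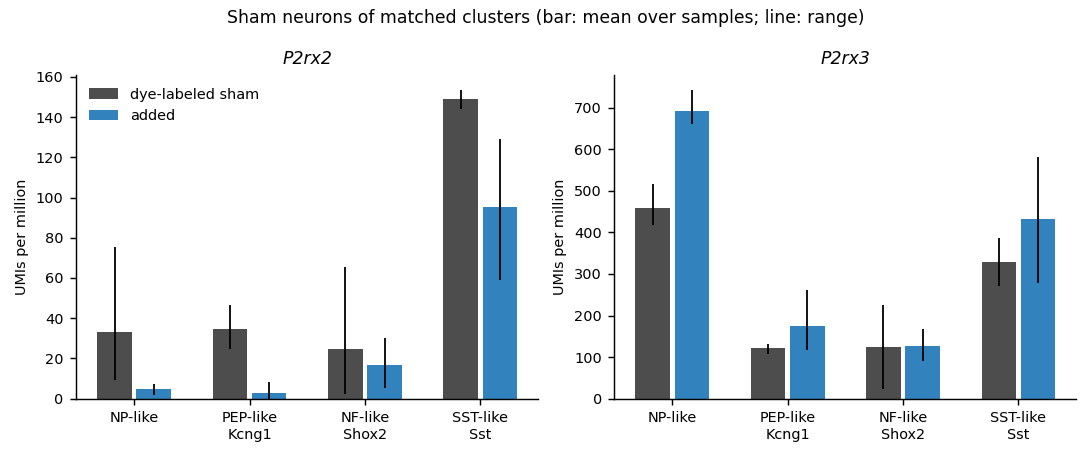
Level (CPM) of P2rx2 and P2rx3 in matched clusters of dye-labeled sham samples and added libraries, with bars for the mean over samples and lines for the range. P2rx2 was lower in the added NP-like and PEP-like neurons without overlap, and its SST-like values, 144 and 153 against 58.9 to 129 CPM, were also apart though not called.

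Beside the 40.6% of all genes called in this comparison, the lists gave these counts. In the Mas-related list 1 of 8 tested was higher in the added libraries, Mrgprx3 (2.82, edgeR adjusted p = 0.00258), and 2 were lower, Mrgprb5 (-1.33) and Mrgpre (-2.19). In the purine list 7 of 16 tested were higher, among them the vesicular nucleotide transporter gene Slc17a9 (2.62), Acpp (2.18), P2ry2 (2.17) and the ectonucleotidase gene Entpd3 (1.82), with P2rx1 (3.62), Panx2 (2.09) and Adora1 (1.29). P2ry14 (-2.61) and Panx1 (-0.78) were lower. In the downstream list Gnaq (1.73), Trpv1 (1.63) and Gna14 (1.27) were higher and Trpa1 was lower (-1.84). All 7 injury genes tested were lower in the added libraries, where Sprr1a was almost undetected and the other 6 ranged from -7.49 (Gal) to -1.18 (Jun). P2rx2 thus fell between sets in which every injury gene tested also differed, and what part the injury state had in it was not tested.

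The genes most like each member over the 930 dye-labeled neurons were ranked by Pearson's r of log2(CPM + 1) among 8184 genes with a mean of at least 10 CPM, and r across cells that share libraries is a description. Mrgprb4 was most like Chrna3 (0.571), a nicotinic receptor subunit gene, followed by Htr3a and, at 0.452, Il7r. Mrgprx4 was most like Il7r (0.465), Chrna3 (0.446) and Kcnk18 (0.420). These members shared Chrna3 and Il7r. P2rx3 was most like Tmem45b (0.551), Gna14 (0.497) and Tspo (0.473), and P2rx2, with a different set, like Mtfr1l (0.397), Itga6 (0.375) and Cdc42se2 (0.368). P2rx6 was most like Lix1 (0.432), Plekhd1 (0.431) and Lin7b (0.411). P2rx4 was most like AABR07053687.1 (0.426), Slc29a1 (0.415), a nucleoside transporter gene, and Eepd1 (0.413), and P2rx5 like Calml4, Lgi3 and Faim2, all at 0.395 to 0.396. Mrgprd, with UMIs in 3 cells, had no value above 0.163.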

How the data were processed

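The authors split reads by cell barcode, aligned them with STAR to the rat Rnor_6.0 annotation, assigned them with featureCounts and SAMtools and collapsed UMIs with UMI-tools; the deposited values are counts, whole UMIs per gene and cell with no normalization. The setting for strand is not given in the sources used here. Cells were kept from 500 detected genes and 1000 UMIs on, with a mitochondrial share below 5%, and the 2 libraries of 7 day replicate 1 were summed. The dye-labeled and the added cells were clustered separately with Seurat 5.3.0 (2000 variable genes without Mas-related and P2X genes, 40 principal components, resolution 0.5) and named from marker lists. No doublet caller was run on these hand-picked neurons, and batches were not corrected.

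UMIs were summed per DRG sample and tested with edgeR 4.0.16 (R 4.3.3; quasi-likelihood test, TMM normalization, filterByExpr, Benjamini-Hochberg adjustment over all genes tested, called at an adjusted p of 0.05). The fits were also run on counts with known changes, simulated from the samples' own means and spread under the same kind of model. Batches and differing neuron types were not simulated, so that check does not show what the fits could have called in these samples. NP-like sums needed at least 3 cells per sample. Shares were compared by exact two-sided permutation tests (SciPy 1.17.1). CPM values printed are not TMM-normalized, and limits for a count of 0 use 3 counts and cover counting error only.

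Named genes were the 8 members, Sprr1a, listed genes past the threshold or otherwise the 2 of largest mean level in each list, and the 3 genes most correlated with each member. The members, lists and marker sets were chosen with earlier results of these data known. Alternatives were DESeq2 1.42.0 and its size factors, no filter on low counts, cells thinned to 20000 UMIs, the year of reverse transcription, other limits of holding and of Sprr1a, other clusterings and each sample left out. The comparisons of matched clusters and of 0 day added libraries alone were added after seeing the data. Counts on 3′ ends cannot tell splice forms apart. A gene of the list of downstream signaling is not reported here.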

Additional observations from a re-analysis of the deposited data

Results flagged for a closer look

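Of 50 sets of 4 to 10 samples of 1 group, 15 had a highest or lowest sample far from the rest (Dixon's 95% critical value), where chance gives about 1 in 20 for continuous values. In 6 of the 15 all other samples were at 0, so that a few UMIs or cells sufficed and that rate does not apply. At 7 days, replicate 5 stood apart in Mrgprb4 at 23.3 CPM (next 4.24) and in Mrgprx4 at 4.41 CPM (next 0.875), and 4.17% of its neurons held Mrgprx4. Replicate 4 of the same group stood apart in P2rx5 at 19.5 CPM (next 5.14), with 4.17% of neurons holding it, and in P2rx6 at 69.6 CPM (next 10.0), with 25% of neurons holding it against 4.17% in the next. At 1 day, replicate 1 stood apart in P2rx5 at 17.6 CPM (next 7.68), with 2.13% of neurons holding it, and in Mrgprd at 0.0786 CPM where the others had 0, and replicate 2 in P2rx4 at 50.6 CPM (next 27.0). In sham, replicate 1 stood apart in P2rx3 at 344 CPM (next 232), replicate 3 in Mrgprd at 0.333 CPM where the others had 0, replicate 4 in the share holding P2rx5 at 1.04%, and replicate 2 in the share holding P2rx6 at 6.25% (next 1.04%). Replicates 4 and 5 at 7 days were mostly of opposite dyes in the sample table of the study. They also differed in neuron types, with 41.7% and 12.5% NF-like, 12.5% and 33.3% SST-like and 4.17% and 8.33% NP-like neurons. The parts of dye and of neuron types in these values were not tested.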

How the results depend on the processing

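P2rx2 lower in the added libraries, and Mrgprb4, P2rx4, P2rx5 and P2rx6 lower in Sprr1a-high neurons, kept their direction under the alternatives that tested them over all neurons. Mrgprd was too low to be tested in most fits. In log2 terms, P2rx6 in added against sham was -0.19 with 0 day libraries only, and by cluster the values that turned were Mrgprb4 -0.75, Mrgprx4 -0.83, P2rx4 -0.013, P2rx5 -0.62 and P2rx6 -1.46 in NP-like neurons, Mrgprx4 -0.36, P2rx4 -0.045, P2rx5 -0.44 and P2rx6 -1.85 in NP-like clusters with Mrgprb4 and Rbp2, Mrgprx4 -0.66 and P2rx4 -0.59 in PEP-like, P2rx4 -0.81 and P2rx6 -1.48 in SST-like, and P2rx3 -0.19 in NF-like neurons. With year as a term, P2rx5 and P2rx6 were -0.087 and -1.26 at 1 day, -0.64 and -1.08 at 3 days and -0.12 and -0.091 at 7 days. After thinning, P2rx6 was -0.17 at 1 day and -0.46 at 3 days and P2rx4 0.11 at 3 days. In NP-like neurons at 1 day, Mrgprx4 was -0.0044 by DESeq2 and P2rx4 0.20 with at least 5 cells. The cause was not tested. Leaving out sham replicate 1, the library that stood apart, changed no member's call and turned the sign of 4 uncalled estimates, within the ranges below.

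Leaving out each sample in turn gave, over all neurons, P2rx6 -0.11 to 0.75 at 1 day; Mrgprb4 -0.70 to 0.36, Mrgprx4 -0.32 to 0.19, P2rx3 -0.29 to 0.048 and P2rx5 -0.038 to 0.39 at 3 days; and P2rx5 -0.64 to 0.48 and P2rx6 -0.68 to 1.32 at 7 days. In NP-like neurons it gave Mrgprx4 -0.84 to 0.43, P2rx2 -1.01 to 1.02, P2rx3 -0.062 to 0.17, P2rx4 -0.57 to 0.10, P2rx5 -0.15 to 3.70 and P2rx6 -0.80 to 0.78 at 1 day, and Mrgprx4 -0.022 to 0.44 and P2rx2 -1.28 to 1.40 at 3 days. Where a group was left with 1 sample, that sample was assumed to vary like the others.

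Counts of genes called against sham over all neurons were 9 at 1 day and 1 at 3 days by DESeq2, 1 at 3 days after thinning or without a filter, 1 at 1 and 3 days with year, and 0 to 1 at 1 and 3 days with a sample left out. In NP-like neurons they were 4 and 3 by DESeq2, 57 and 38 without a filter (with 1 member, Mrgprb4, at 1 day) and 0 to 1 at 3 days with a sample left out. For added against sham, 3410 genes were called with 0 day libraries only, 3481 in NF-like, 3026 in PEP-like and 1583 in SST-like clusters, against 6415 in all, and the members called were 5 in NP-like, 2 in NF-like and 0 in SST-like clusters. A left-out sample gave 1 to 2 members (2 without added 0 day replicate 1, where P2rx5 had 1.82 and an edgeR adjusted p of 0.0397, or without sham replicate 3, where Mrgprd entered with 0.0452). The block of sample and cluster called 1036 genes and 1 member. P2rx3 was held by 100% of Mrgprb4 holders at 1 UMI and by 98.4%, 90.2% and 78.2% of P2rx2 holders at 1 UMI, 20 CPM and 100 CPM, and 100% of Mrgprx4 holders held Mrgprb4 at 100 CPM. At clustering resolution 0.3, 253 dye-labeled and 134 added neurons were NP-like, with Mrgprb4 at 34.7 and 32.3 CPM, P2rx2 at 59.1 CPM in the dye-labeled and P2rx3 at 791 CPM in the added ones. Of the added holders 24.7% for Mrgprb4 and 28.6% for Mrgprx4 were then NP-like, and of the dye-labeled holders 72.4% and 100%.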
